A study of Homo sapiens with 18 samples.

Results

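Tsg101, the ubiquitin-binding core subunit of ESCRT-I, was depleted in RKO cells with either of 2 siRNAs, and the 3 libraries of siTsg101#1 were compared here with the 3 libraries of siTsg101#2. The libraries were chosen by their treatment label, and those with the same batch number were paired, which took in 6 of the 18 libraries of the series. ESCRT-I receives ubiquitylated membrane proteins on endosomes and passes them to the later ESCRT complexes, which enclose them in intraluminal vesicles for degradation in lysosomes. Its loss leaves receptors on the endosomal membrane, and NF-κB signalling is known to follow. An siRNA directs Argonaute proteins to the matching mRNA, and bases near the start of its guide strand can also pair with other mRNAs, so that a pair of siRNAs to one target has that target in common and other partial matches of its own.

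The series asked how depletion of ESCRT-I changes gene expression in colorectal cancer cells. RKO, an established human colorectal carcinoma line, was transfected by lipofection with 30 nM of an Ambion Silencer Select siRNA, and the cells were harvested after 72 h. The groups were the nontargeting siCtrl#1 and siCtrl#2, siTsg101#1 (s14439) and siTsg101#2 (s14440) against Tsg101, and siVps28#1 and siVps28#2 against Vps28, with 3 libraries each. The labels number the libraries of every group 1 to 3 and give that number as the batch, so that each batch held 1 library of every siRNA. The guide sequences were not analysed here.

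Reads of an amplicon panel had been counted per transcript target, and siTsg101#1 libraries held 2561790, 3786891 and 7466916 gene counts in batches 1, 2 and 3 against 6586916, 6225509 and 6246663 for siTsg101#2. Reads of low quality made up 5.29% to 5.59% of the siTsg101#1 and 5.51% to 5.68% of the siTsg101#2 libraries, against 4.71% to 5.06% in the other 12. Of 10 markers of RKO and epithelial cells, 7 passed the minimum for testing, among them CDX2, KRT18 and EPCAM, while CDH1 had no read in any of the 6 libraries. KRT8 and VIM were lower with siTsg101#1, by log2 differences of -0.83 and -0.82. Markers of lymphocytes, endothelium and fibroblasts summed to at most 1.56 CPM in each of the 6 libraries, with 7 of 9, 4 of 5 and 4 of 6 at 0, and the myeloid list, with 3 of 6 at 0, had no marker other than the lysosomal CD68 above 0.536 CPM.

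Both siRNAs lowered TSG101, and their libraries overlapped. TSG101 was counted with 8, 14 and 34 reads with siTsg101#1 and 18, 16 and 30 with siTsg101#2, in batch order, or 3.27, 3.67 and 4.75 CPM with siTsg101#1 and 2.81, 2.49 and 4.99 CPM with siTsg101#2, where CPM is the count scaled to the library total after TMM normalisation. In siCtrl#1 it stood at 78.4, 159 and 118 CPM. All 6 values lay far under all 12 control and siVps28 libraries (74.5 to 167 CPM) with both siRNAs. On the log2 scale TSG101 was -4.89 with siTsg101#1 and -5.12 with siTsg101#2 against siCtrl#1, and the difference between them was 0.22 (SE 0.42, adjusted p = 0.792). Its 95% interval, -0.71 to 1.16, rests on 8 to 34 reads a library, and a difference in residual TSG101 mRNA within that range was not detectable at this depth.

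**Figure D1:**
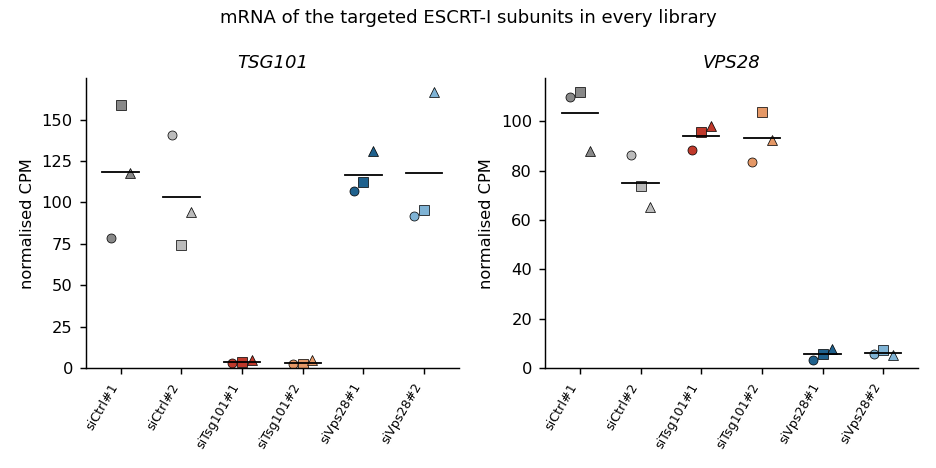
Normalised CPM (vertical axis, linear from 0) of TSG101 and VPS28 in each of the 18 libraries by siRNA group; circles, squares and triangles are batches 1, 2 and 3 and bars are group means. The 6 siTsg101 libraries lie between 2.49 and 4.99 CPM for TSG101, and the VPS28 libraries of both Tsg101 siRNAs overlap.

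No other ESCRT-I subunit was called. VPS28 was 0.02 (95% interval -0.35 to 0.40), and the 9 tested subunits had a median difference of -0.07 and a range of -0.32 to 0.29. VPS37A, one of the alternative VPS37 subunits, lay above all 12 other libraries with both siRNAs, at 25.8, 17.8 and 24.2 CPM with siTsg101#1 and 26.1, 27.7 and 25.3 CPM with siTsg101#2. MVB12A, the small subunit that binds ubiquitin and membranes, lay below all 12 with both, at 11.5, 12.6 and 12.8 CPM with siTsg101#1 and 14.7, 15.9 and 15.8 CPM with siTsg101#2. For VPS37A the log2 values against siCtrl#1 were 1.32 and 1.56, and for MVB12A -1.20 and -0.88, with siTsg101#1 and siTsg101#2. VPS37A overlaps antisense exons over 1760 bases. Among 23 other ESCRT subunits, the ESCRT-III gene CHMP4B was called higher (0.83) and CHMP2B lower (-0.62) with siTsg101#1. That is 4.35% in each direction, against 3.96% higher and 5.07% lower of all tested genes. The call of CHMP4B was lost without the block and without any 1 library of batches 1 or 2, and that of CHMP2B under 9 of the settings run, so neither is firm.

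Beyond the shared target the siRNAs differed widely. With the batch number as a block, 404 genes were higher (3.96% of 10212 tested) and 518 lower (5.07%) with siTsg101#1 than with siTsg101#2 at 1.5-fold or more and an adjusted p under 0.05, which is 922 genes or 9.03%. The same test called 74 genes (0.725%) between siVps28#1 and siVps28#2 and 327 (3.2%) between siCtrl#1 and siCtrl#2. The median absolute log2 difference over all tested genes was 0.24 for the Tsg101 pair, 0.17 for the Vps28 pair and 0.21 for the nontargeting pair. Higher calls had a median of 0.80 and lower calls of -0.86, and 117 and 173 of them reached 2-fold. The sign was the same in all 3 batches for 401 of 404 and 513 of 518 calls, against 5021 of 10212 tested genes. Libraries of the siRNAs did not overlap for 381 and 488. Over all tested genes siTsg101#1 lay wholly above siTsg101#2 in 13.8% and wholly below in 15.3%. The calls came from these same libraries, so neither count is independent support for them.

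The number of calls fell whichever 1 of the 6 libraries was left out, to between 249 and 370 higher and between 306 and 409 lower. Higher calls were fewest without siTsg101#1 of batch 1 (249), then without siTsg101#2 of batch 3 (269). Lower calls were fewest without siTsg101#1 of batch 3 (306). After every library was thinned to 2561790 counts, 347 higher and 406 lower calls were found.

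**Figure D2:**
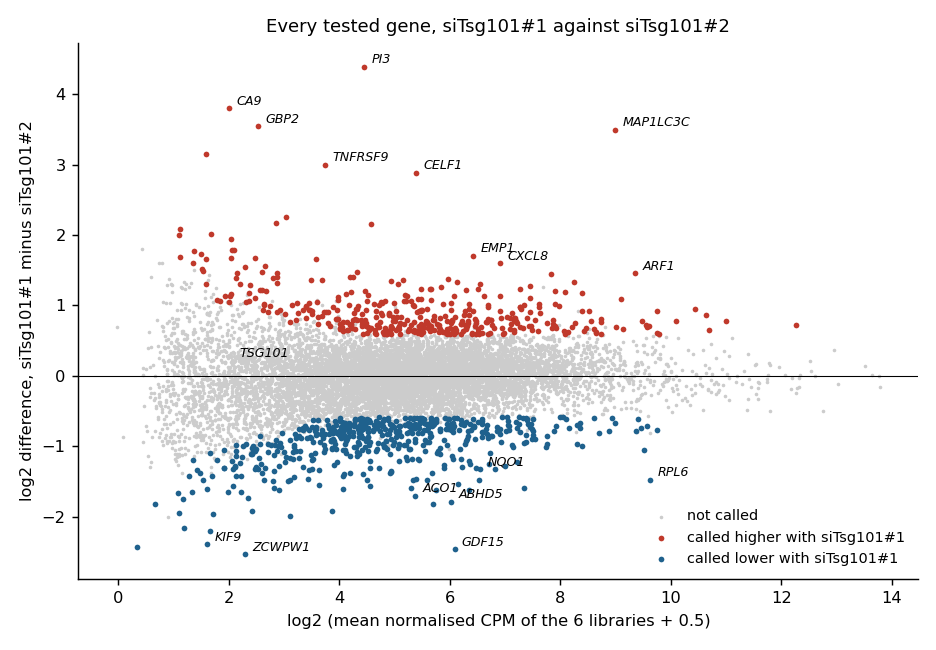
Log2 difference between siTsg101#1 and siTsg101#2 (vertical axis) against the mean level of the 6 libraries (horizontal axis, log2 of CPM plus 0.5) for each of the 10212 tested genes. Called genes in both directions span low and high levels, and TSG101 itself lies among the genes not called.

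Each siRNA against siCtrl#1 gave 1280 higher and 1113 lower genes for siTsg101#1 and 1182 and 773 for siTsg101#2. These comparisons share the siCtrl#1 libraries and are given side by side only. To see which siRNA moved, the 12 control and siVps28 libraries served as a common scale. Among the 404 higher calls, siTsg101#1 lay above all 12 in 75 (18.6%) and siTsg101#2 below all 12 in 81 (20%), against 4.74% and 3.04% of all tested genes. Among the 518 lower calls, siTsg101#1 lay below all 12 in 175 (33.8%) and siTsg101#2 above all 12 in 59 (11.4%), against 4.34% and 4.83%. The calls were chosen for a difference between these same libraries, which by itself raises such shares above those of all genes. The contrast with all tested genes is thus no separate evidence of which siRNA moved. In 249 and 287 calls neither siRNA had all 3 libraries beyond the 12 in these directions. Single libraries could still lie outside that range.

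The gene with the smallest p was MAP1LC3C (chr1:242158792-242162400, GRCh37), an LC3 family protein of autophagosome membranes. It measured 1112, 687 and 1006 CPM with siTsg101#1 and 74.7, 52.6 and 126 CPM with siTsg101#2, against 169 to 886 CPM in the other 12, and the difference was 3.49 (SE 0.22, adjusted p = 1.28e-09). All siTsg101#2 libraries were thus below the 12 and all siTsg101#1 libraries far above those of siTsg101#2, although siCtrl#2 reached 886 CPM in batch 1. About 10.3% of its transcript is shared with other transcripts. CELF1 (chr11:47487485-47587121), an RNA-binding regulator of splicing and mRNA decay, measured 78.6, 65.6 and 75.4 CPM with siTsg101#1 and 11.4, 8.41 and 9.97 CPM with siTsg101#2. Its siTsg101#1 libraries were above all 12 others (9.89 to 28.4 CPM) and the difference was 2.88 (SE 0.19, adjusted p = 1.83e-09), with batch values between 2.73 and 2.89.

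At ARF1 and COX5B, siTsg101#2 alone left the range of the 12. ARF1 (chr1:228270409-228286913), the small GTPase of coat assembly at the Golgi, measured 981, 901 and 987 CPM with siTsg101#1 and 368, 313 and 364 CPM with siTsg101#2. The siTsg101#1 values lay within the 842 to 1097 CPM of the other 12, and the difference was 1.46 (SE 0.13, adjusted p = 3.82e-07). COX5B, a subunit of cytochrome c oxidase, measured 206, 210.4 and 223 CPM with siTsg101#1 and 102, 54.03 and 121 CPM with siTsg101#2, again with only siTsg101#2 below the 12 others (129 to 304 CPM), a difference of 1.23 (SE 0.25, adjusted p = 0.00233). AGO2, the Argonaute that cleaves siRNA targets, measured 835, 709 and 688 CPM with siTsg101#1 and 369, 289 and 380.0 CPM with siTsg101#2, with siTsg101#2 below the 12 and a difference of 1.10 (SE 0.19, adjusted p = 0.000527). AGO1 went the other way at 25.4, 23.4 and 23.6 CPM with siTsg101#1 and 43.1, 40.01 and 43.2 CPM with siTsg101#2, with siTsg101#1 below the 12 (38.4 to 69.8 CPM) and a difference of -0.81 (SE 0.19, adjusted p = 0.00737). Of 13 RNA interference factors these were the ones called, and the median was 0.00. That is 7.69% in each direction, against 3.96% higher and 5.07% lower of all tested genes.

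Among the lower calls with the smallest p, siTsg101#1 often left the range of the 12. EBPL (chr13:50234810-50265622), a relative of the sterol isomerase EBP, measured 20.1, 17.6 and 28.9 CPM with siTsg101#1 and 67.7, 86.3 and 85.1 CPM with siTsg101#2 against 91.3 to 134 CPM elsewhere, so that both siRNAs were below the 12 and siTsg101#1 much further, with a difference of -1.82 (SE 0.17, adjusted p = 5.03e-07). ACO1, the cytosolic aconitase that doubles as an iron-responsive RNA-binding protein, measured 15.1, 19.7 and 22.1 CPM with siTsg101#1 and 65.4, 60.7 and 62.00 CPM with siTsg101#2, a difference of -1.70 (SE 0.17, adjusted p = 8.09e-07). TRAK2, an adaptor of mitochondrial transport, measured 21.7, 19.7 and 17.03 CPM with siTsg101#1 and 55.9, 62.1 and 56.3 CPM with siTsg101#2, a difference of -1.59 (SE 0.17, adjusted p = 2.89e-06). For ACO1 and TRAK2 the siTsg101#2 libraries lay inside the ranges of the other 12 (43.96 to 77.6 CPM and 41.9 to 64.7 CPM), and all 3 siTsg101#1 libraries lay below them.

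RPL6 also had siTsg101#1 alone under the 12. This protein of the large ribosomal subunit measured 426, 402 and 415 CPM with siTsg101#1 and 1096, 1022 and 1368 CPM with siTsg101#2, against 584 to 1047 CPM elsewhere, with a difference of -1.48 (SE 0.16, adjusted p = 3.54e-06). Of 70 tested cytosolic ribosomal protein genes RPL6 and RPL14 (-0.77) were called and the median was -0.11. That is 2.86% lower and 0 higher, against 5.07% and 3.96% of all tested genes. The call of RPL14 was lost without any 1 of the 6 libraries. About 9.7% of RPL6 is shared with a processed pseudogene. The genes UCP2 (-1.62), SSBP3 (-1.54), NOB1 (-1.48), CERS2 (-1.28), COQ5 (-2.00), CCDC28B (-1.92) and MFSD6 (-1.96) had all siTsg101#1 libraries under the 12 others as well. UCP2 is a mitochondrial carrier, CERS2 a ceramide synthase, NOB1 a nuclease of ribosome maturation and COQ5 an enzyme of coenzyme Q synthesis. CERS2 overlaps antisense exons over 1726 bases, CCDC28B over 571 and NOB1 over 429.

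**Figure D3:**
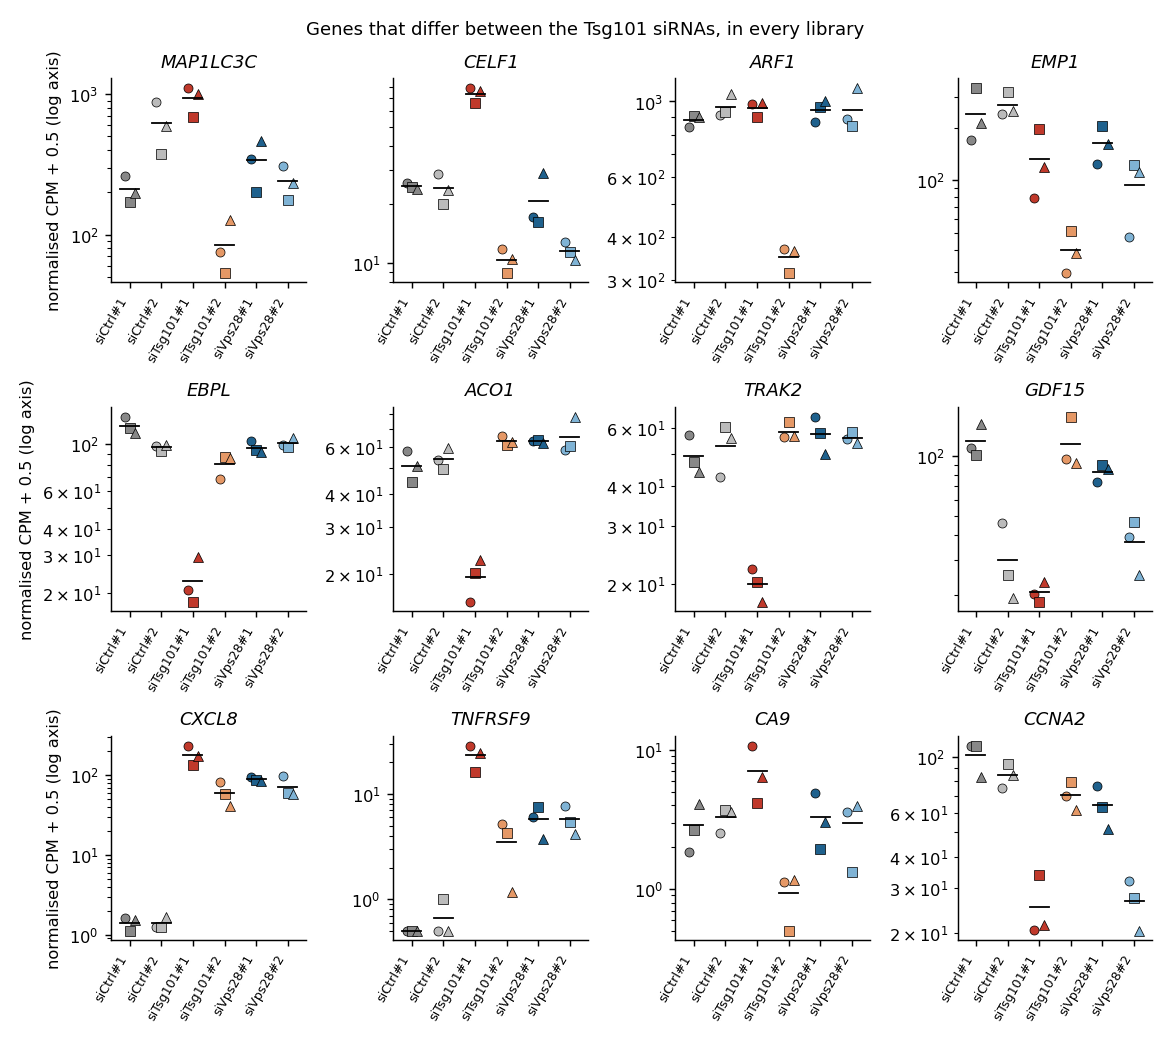
Normalised CPM plus 0.5 (vertical axis, log scale) of 12 genes in all 18 libraries by siRNA group; circles, squares and triangles are batches 1, 2 and 3 and bars are group means. ARF1 is low in the siTsg101#2 libraries alone, EBPL, ACO1 and TRAK2 are lowest with siTsg101#1, and CXCL8 and TNFRSF9 are above every siCtrl library with all 4 siRNAs to ESCRT-I and highest with siTsg101#1.

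GDF15, a stress-induced cytokine of the TGF-β family, gave the largest lower difference among genes above 10 CPM. It measured 19.6, 17.8 and 22.8 CPM with siTsg101#1 and 95.3, 157 and 91.8 CPM with siTsg101#2, a difference of -2.46 (SE 0.28, adjusted p = 4.59e-06). Here the other groups spread widely (18.7 to 144 CPM), with siCtrl#2 at 45.2, 24.5 and 18.7 and siVps28#2 at 38.7, 45.8 and 24.5 CPM, so that siTsg101#1 did not stand apart. EMP1, a tetraspan membrane protein, measured 78.99, 197 and 119 CPM with siTsg101#1 and 28.9, 50.9 and 37.7 CPM with siTsg101#2, a difference of 1.70 (SE 0.19, adjusted p = 3.25e-06), against 46.9 to 339.7 CPM elsewhere. The lower genes of low level included ZCWPW1, a reader of histone marks, with 2, 4 and 12 reads with siTsg101#1 and 49, 44 and 50 with siTsg101#2, a difference of -2.54 (SE 0.35, adjusted p = 5.55e-05). KIF9, a kinesin, had 1, 4 and 6 reads with siTsg101#1 and 29, 24 and 28 with siTsg101#2 and MTFR2, a regulator of mitochondrial fission, 1, 6 and 5 reads with siTsg101#1 and 23, 34 and 26 with siTsg101#2. ZCWPW1 and KIF9 overlap antisense exons over 930 and 1048 bases. FAM161B had 0, 1 and 2 reads with siTsg101#1 and 5, 11 and 9 with siTsg101#2, and no fold is given for so few reads. FAM161B passed the minimum of more than 100 counts only with its siTsg101#2 reads, and it overlaps antisense exons over 1423 bases.

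PI3, the elastase inhibitor elafin, measured 36.8, 12.9 and 73.2 CPM with siTsg101#1 and 2.65, 0.934 and 1.66 CPM with siTsg101#2, a difference of 4.39 (SE 0.35, adjusted p = 1.77e-07). All 3 siTsg101#1 libraries were above the 0 to 3.66 CPM of the 12 others. TNFRSF9, the receptor 4-1BB, measured 28.2, 15.7 and 24.2 CPM with siTsg101#1 and 4.68, 3.74 and 0.665 CPM with siTsg101#2, a difference of 2.99 (SE 0.37, adjusted p = 2.30e-05). TNFAIP6, a secreted hyaluronan-binding protein, had 13, 14 and 32 reads with siTsg101#1 and 6, 1 and 2 with siTsg101#2, and GBP2, an interferon-induced GTPase, 32, 37 and 46 reads with siTsg101#1 and 5, 7 and 3 with siTsg101#2, with differences of 3.16 and 3.55. PI3, TNFRSF9, TNFAIP6, TNFAIP8 and GBP2 each lay above all 12 others with siTsg101#1. PI3, TNFAIP6 and GBP2 passed the minimum of more than 100 counts only with their siTsg101#1 reads. Their place above the 12 is thus in part set by the filter. GBP2 shares 621 exon bases with GBP7.

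CXCL8, the neutrophil attractant, measured 236, 133 and 172 CPM with siTsg101#1 and 81.9, 57.1 and 40.9 CPM with siTsg101#2, a difference of 1.60 (SE 0.17, adjusted p = 2.73e-06), and stood at 96.1, 86.2 and 84.7 CPM with siVps28#1, 96.5, 58.99 and 58.5 with siVps28#2 and 1.13, 0.615 and 1.03 with siCtrl#1. CXCL8 was therefore well above the nontargeting libraries with all 4 siRNAs to ESCRT-I, the siTsg101#1 libraries above every other library. CXCL1 had 23, 14 and 30 reads with siTsg101#1 and 10, 12 and 5 with siTsg101#2, a difference of 1.94 (SE 0.37, adjusted p = 0.00128). CCL20 (1.66) and CSF2 (1.68) were also called, on 7 to 34 reads a library, and these calls were lost after thinning. IL11, of the IL-6 family, was opposite at 34.8, 11.8 and 39.5 CPM with siTsg101#1 and 94.7, 48.9 and 75.8 CPM with siTsg101#2, a difference of -1.39 (SE 0.25, adjusted p = 0.000928). In the list of chemokines and cytokines, 4 of 11 (36.4%) were called higher and 1 (9.09%) lower, against 3.96% higher and 5.07% lower of all tested genes, and the median was 0.15. CXCL1 and CCL20 passed the minimum of more than 100 counts only with their siTsg101#1 reads, so the higher share is in part set by the filter. The median ranged from -0.05 to 0.30 with single libraries left out, and the number of higher calls from 2 (without siTsg101#2 of batch 3) to 4. Both also depended on the count filter. With at least 10 counts in every library, 5 members remained, with 0 higher, 1 lower and a median of -0.1. With no low-count filter, 22 members had 5 higher, 1 lower and a median of 0.64. After thinning, 2 were higher and the median was 0.

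Of 30 NF-κB feedback and effector genes, 12 (40%) were called higher and 0 lower, against 3.96% and 5.07% of all genes, and 28 of 30 were positive. The median was 0.49, against -0.02 for all tested genes, and 0.66, 0.32 and 0.51 in batches 1, 2 and 3. The list's medians against siCtrl#1 were 1.23 for siTsg101#1, 0.80 for siTsg101#2, and 0.96 and 1.05 for siVps28. PLAU, the urokinase, measured 60.6, 37.8 and 42.9 CPM with siTsg101#1 and 22.5, 19.6 and 14.3 CPM with siTsg101#2 (1.31). CYLD, a deubiquitinase that restrains the pathway, was at 0.65, and the transcription factor IRF1 at 0.95, calls that were lost without siTsg101#1 of batch 1 or siTsg101#2 of batch 3 for CYLD and without siTsg101#1 of batch 3 for IRF1. Leaving out 1 library gave a median between 0.40 and 0.60 and the higher calls between 4 and 12, with 4 without siTsg101#1 of batch 1 or without siTsg101#2 of batch 3. IRF1 and PLAU overlap antisense exons over 2805 and 915 bases.

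The promoters of CXCL1 (chr4:73869143-73869442, plus strand) and TNFRSF9 (chr1:7940790-7941089, minus strand) are shown because both genes separate the siRNAs and hold the κB consensus motif, given in capitals. The windows run from 250 bases before to 50 after the start site and are RefSeq sequence on GRCh38.p14, 5′ to 3′ on the gene's strand.
CXCL1: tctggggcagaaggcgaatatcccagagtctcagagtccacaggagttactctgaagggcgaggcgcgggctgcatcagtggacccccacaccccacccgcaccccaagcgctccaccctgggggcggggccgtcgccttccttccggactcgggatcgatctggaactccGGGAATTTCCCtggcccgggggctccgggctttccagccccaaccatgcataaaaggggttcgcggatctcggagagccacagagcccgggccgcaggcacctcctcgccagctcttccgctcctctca
TNFRSF9: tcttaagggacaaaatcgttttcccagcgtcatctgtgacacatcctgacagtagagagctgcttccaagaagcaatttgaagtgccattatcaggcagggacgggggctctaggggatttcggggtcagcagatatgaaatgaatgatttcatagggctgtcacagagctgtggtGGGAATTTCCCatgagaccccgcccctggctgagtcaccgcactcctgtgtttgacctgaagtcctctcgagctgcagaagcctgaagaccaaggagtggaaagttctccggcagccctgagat

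The matches begin 79 and 78 bases before the start in CXCL1 and 74 and 73 in TNFRSF9, and the motif was searched on both strands. The κB motif occurred in 9 of 27 NF-κB list promoters (33.3%), in 4 of the 12 of called genes, and in 5 of 9 chemokine promoters (55.6%), against 13.2% of 8430 promoters of tested genes and 10.8% of all 27305. The share was the same in called NF-κB genes as in the whole NF-κB list.

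Immediate early genes of the AP-1 and MAP kinase response gave more higher than lower calls: 9 of 30 were called higher and 1 lower, with a median difference of 0.32, and 23 of 30 positive. These shares are 30% and 3.33%, against 3.96% higher and 5.07% lower of all tested genes. DUSP6, a phosphatase induced by ERK, measured 519, 394 and 488 CPM with siTsg101#1 and 228, 162 and 231 CPM with siTsg101#2, a difference of 1.18 (SE 0.17, adjusted p = 8.43e-05). EGR2, a zinc-finger factor, measured 9.41, 9.45 and 10.6 CPM with siTsg101#1 and 6.24, 2.65 and 2.33 CPM with siTsg101#2, a difference of 1.46 (SE 0.29, adjusted p = 0.00223). ETV5 (0.82) and CCN1 (0.90), an ETS factor and a matricellular protein, were called with siTsg101#2 below the 12 others. With 1 library left out, 5 to 8 higher calls were found, fewest without siTsg101#1 of batch 1 or siTsg101#2 of batch 3. DUSP6 overlaps antisense exons over 1105 bases.

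Among 28 p53 targets, 6 (21.4%) were higher and 1 (3.57%) lower, against 3.96% higher and 5.07% lower of all tested genes, with a median of 0.28. FAS, the death receptor, measured 43.4, 29.4 and 35.04 CPM with siTsg101#1 and 21.2, 16.8 and 14.3 CPM with siTsg101#2, a difference of 1.04 (SE 0.17, adjusted p = 0.00038), and BTG2, an antiproliferative factor, 133, 76.4 and 118 CPM with siTsg101#1 and 51.6, 37.4 and 49.7 CPM with siTsg101#2, a difference of 1.22 (SE 0.17, adjusted p = 5.76e-05). In both genes all siTsg101#1 libraries exceeded the 12 others, and FAS overlaps antisense exons over 917 bases. The single lower member was GDF15, described above. Leaving out libraries gave 4 to 6 higher calls. The list shares FAS, TNFRSF10A and TNFRSF10B with the 27 receptors sorted by ESCRT. Of these 27, 4 (14.8%) were higher and 1 (3.7%) lower, against 3.96% and 5.07% of all tested genes, with a median of 0.11. With 1 library left out the receptors had 2 to 4 higher calls, fewest without siTsg101#1 of batch 1. EGFR, the growth factor receptor, measured 142, 73.7 and 119 CPM with siTsg101#1 and 58.5, 49.98 and 64.99 CPM with siTsg101#2 (0.93), and the lower member was EPHB4 (-0.73).

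**Figure D4:**
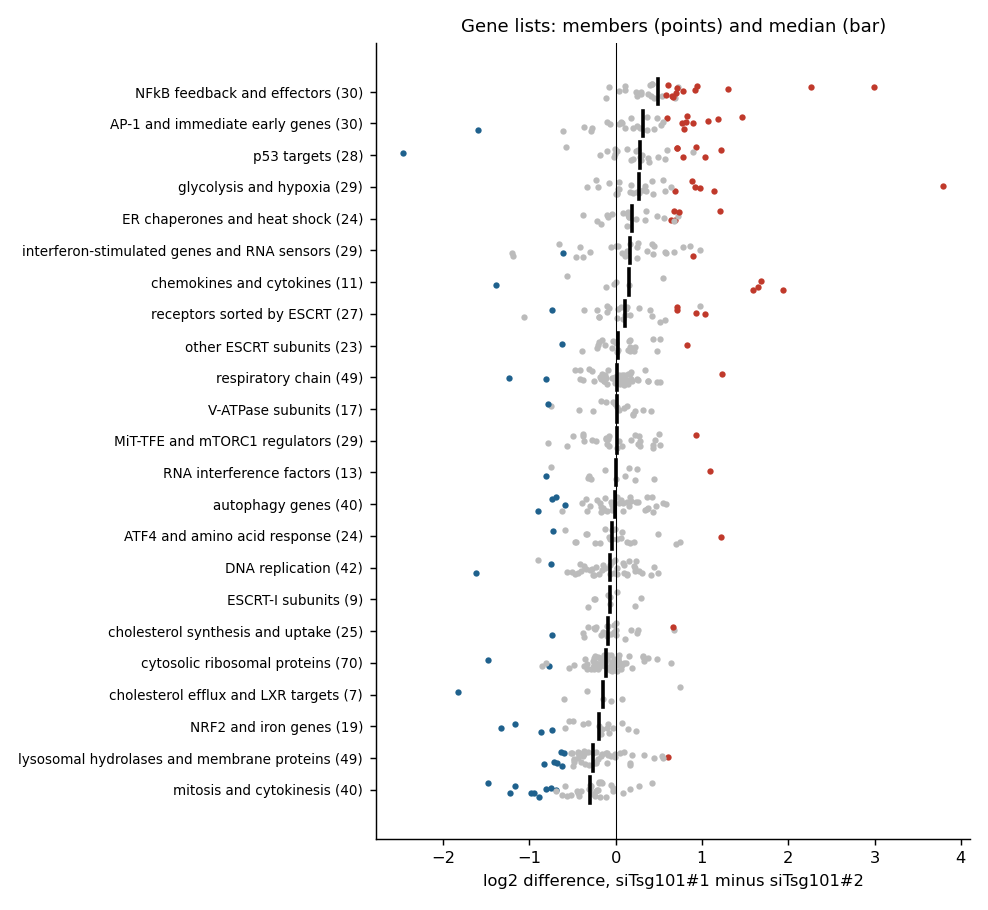
Log2 difference between siTsg101#1 and siTsg101#2 (horizontal axis) for the tested members of 23 gene lists, ordered by median; red points were called higher, blue lower and grey not called, bars are medians, and the number tested is in parentheses. Medians run from -0.30 (mitosis and cytokinesis) to 0.49 (NF-κB), with most lists near 0.

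Glycolytic and hypoxia-responsive genes were called in 1 direction: 6 of 29 were called higher and 0 lower, with a median difference of 0.27, and 25 of 29 positive. The higher share was 20.7%, against 3.96% higher and 5.07% lower of all tested genes. Against siCtrl#1 their medians were 0.40 with siTsg101#1 and -0.09 with siTsg101#2. CA9, the carbonic anhydrase induced by HIF, had 25, 14 and 42 reads with siTsg101#1 and 4, 0 and 4 with siTsg101#2, a difference of 3.80 (SE 0.55, adjusted p = 9.12e-05). SLC2A3, the glucose transporter GLUT3, measured 143, 171 and 177 CPM with siTsg101#1 and 68.6, 79.4 and 75.3 CPM with siTsg101#2 (1.14), and BNIP3L, a mitophagy receptor, 229.6, 159 and 226 CPM with siTsg101#1 and 99.7, 91.1 and 119 CPM with siTsg101#2 (0.98). SLC2A1 (0.92) and NDRG1 (0.89) had libraries that overlapped between siRNAs and were called through the batch pairs, since without the block their adjusted p was 0.14 and 0.0632. The list had 3 higher calls without the block and 5 to 7 with 1 library left out. CA9 shares 571 exon bases with an antisense neighbour and SLC2A1 497.

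The CA9 promoter (chr9:35673678-35673977, plus strand, GRCh38.p14, RefSeq) is shown with the hypoxia response core ACGTG in capitals, read here on the other strand as CACGT and starting 18 bases before the start site.
CA9: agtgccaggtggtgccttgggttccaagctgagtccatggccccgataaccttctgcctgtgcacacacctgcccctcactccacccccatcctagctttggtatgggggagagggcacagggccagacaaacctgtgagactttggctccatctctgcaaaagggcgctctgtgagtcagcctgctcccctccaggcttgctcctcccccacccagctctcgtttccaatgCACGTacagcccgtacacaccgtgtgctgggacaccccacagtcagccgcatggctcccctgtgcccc

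ACGTG occurs in 28.1% of promoters of tested genes on either strand, so that its presence here is common. The ER chaperone and heat shock list had 5 of 24 (20.8%) higher and 0 lower, against 3.96% higher and 5.07% lower of all tested genes, and a median of 0.20. CRELD2, an ER stress protein, measured 36.02, 33.1 and 21.9 CPM with siTsg101#1 and 17.9, 9.19 and 11.97 CPM with siTsg101#2 with a difference of 1.20 (SE 0.21, adjusted p = 0.000673), and MANF, secreted upon ER stress, 192, 211 and 187 CPM with siTsg101#1 and 119, 124 and 126 CPM with siTsg101#2 with a difference of 0.68 (SE 0.14, adjusted p = 0.00348). CRELD2 was 0.01 with siTsg101#1 and -1.20 with siTsg101#2 against siCtrl#1, and MANF 0.25 and -0.43. CRELD2 and MANF kept their calls under every setting run. The other 3 lost theirs without siTsg101#2 of batch 1 or 2 or without siTsg101#1 of batch 2.

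Genes of the NRF2 response, which detoxify and handle iron, were called in 1 direction, opposite to the hypoxia list: 4 of 19 (21.1%) were called lower and 0 higher, against 5.07% and 3.96% of all tested genes, 16 of 19 were negative, and the median was -0.20. NQO1, a quinone reductase, measured 48.7, 43.6 and 64.4 CPM with siTsg101#1 and 134, 145 and 122 CPM with siTsg101#2, a difference of -1.33 (SE 0.18, adjusted p = 3.14e-05). The 12 others spread from 35.7 to 175 CPM, and NQO1 was 0.21 and 1.54 with siTsg101#1 and siTsg101#2 against siCtrl#1, where the siVps28 siRNAs gave 1.80 and 1.76. HMOX1, heme oxygenase, measured 59.8, 70.8 and 72.04 CPM with siTsg101#1 and 135, 109.6 and 126 CPM with siTsg101#2, a difference of -0.87 (SE 0.14, adjusted p = 0.000255), and was 0.00 and 0.87 against siCtrl#1. The siTsg101#1 libraries of both genes thus lay near siCtrl#1. Those of siTsg101#2 came close to siVps28 at NQO1, and at HMOX1 lay between siCtrl#1 and siVps28 (188, 206 and 171 CPM with siVps28#1). NQO1 overlaps antisense exons over 575 bases. PIR (-1.16) and GCLM (-0.73) were the other lower calls, lost without either library of batch 3 for PIR and without any of 4 single libraries for GCLM. The lower calls numbered 2 to 5 with 1 library left out, fewest without siTsg101#2 of batch 3.

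Of 40 mitotic genes tested, 9 (22.5%) were called lower and 0 higher, against 5.07% and 3.96% of all tested genes, 36 of 40 were negative, and the median was -0.30, with -0.27, -0.11 and -0.57 in the batches. CCNA2, cyclin A2, measured 20.1, 33.3 and 20.9 CPM with siTsg101#1 and 69.1, 78.9 and 61.00 CPM with siTsg101#2, a difference of -1.48 (SE 0.18, adjusted p = 1.31e-05). TPX2, a spindle assembly factor, measured 92.5, 105 and 68.8 CPM with siTsg101#1 and 220.0, 201 and 198 CPM with siTsg101#2, a difference of -1.23 (SE 0.15, adjusted p = 1.48e-05), with siTsg101#1 below all 12 others (134 to 301 CPM). CDC20, an activator of the anaphase-promoting complex, measured 20.1, 26.5 and 26.2 CPM with siTsg101#1 and 41.2, 55.4 and 48.5 CPM with siTsg101#2, a difference of -0.98 (SE 0.19, adjusted p = 0.00157). Against siCtrl#1 the list's median was -0.62 for siTsg101#1 and -0.39 for siTsg101#2, beside -0.60 and -0.97 for the siVps28 pair. In CCNA2, siVps28#2 was as low as siTsg101#1, at 31.7, 26.9 and 19.8 CPM. In bulk libraries a smaller share of dividing cells and less mRNA in each cannot be told apart.

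The number of lower mitotic calls ranged from 3 (without siTsg101#1 of batch 3) to 11 with 1 library left out. Of 42 DNA replication genes, 2 (4.76%) were called lower and 0 higher, against 5.07% and 3.96% of all tested genes. The lower share was thus near that of all genes. The median was -0.06, and the list's medians against siCtrl#1 were -0.99 with siTsg101#1 and -0.81 with siTsg101#2. MCM10 (-0.74), a replication initiation factor, was among the lower calls, and its call was lost without siTsg101#1 of batch 1 or either library of batch 3.

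The promoters of CDC20 (chr1:43358731-43359030, plus strand) and ASPM (chr1:197146620-197146919, minus strand; GRCh38.p14, RefSeq) are shown for the cell-cycle element TTTGAA, in capitals on either strand.
CDC20: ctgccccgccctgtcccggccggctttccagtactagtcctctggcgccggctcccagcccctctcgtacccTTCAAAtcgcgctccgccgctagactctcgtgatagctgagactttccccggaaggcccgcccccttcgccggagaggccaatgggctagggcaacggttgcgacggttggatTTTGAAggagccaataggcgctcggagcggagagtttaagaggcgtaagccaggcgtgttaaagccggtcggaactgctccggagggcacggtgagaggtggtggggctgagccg
ASPM: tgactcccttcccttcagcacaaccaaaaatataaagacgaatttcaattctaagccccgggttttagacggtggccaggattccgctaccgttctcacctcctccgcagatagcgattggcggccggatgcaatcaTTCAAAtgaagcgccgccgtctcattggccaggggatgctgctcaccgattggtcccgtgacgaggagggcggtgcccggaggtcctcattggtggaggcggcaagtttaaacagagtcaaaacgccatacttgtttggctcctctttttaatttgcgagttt

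TTTGAA occurred in 24 of 33 promoters of the mitosis list (72.7%) and in 4 of 8 of its lower calls, against 9.41% of promoters of tested genes. ASPM, a spindle pole protein, measured 11.9, 14.4 and 9.49 CPM with siTsg101#1 and 20.8, 21.8 and 22.6 CPM with siTsg101#2, a difference of -0.89 (SE 0.22, adjusted p = 0.0116), and this call was lost without siTsg101#1 of batch 3.

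Lysosomal genes, which the study followed as targets of TFEB and TFE3, gave small differences, mostly negative. Of 49 hydrolases and membrane proteins, 39 were negative with a median of -0.27 (-0.21, -0.28 and -0.20 in the batches), 6 (12.2%) were called lower and 1 (2.04%) higher, against 5.07% and 3.96% of all tested genes. Against siCtrl#1 the medians were 0.12 with siTsg101#1 and 0.40 with siTsg101#2, and 0.21 and 0.32 with the siVps28 siRNAs. CTSL, cathepsin L, measured 242, 253 and 256 CPM with siTsg101#1 and 407, 439 and 351 CPM with siTsg101#2, a difference of -0.68 (SE 0.15, adjusted p = 0.0059). CTSA, the protective protein of galactosidase, measured 402, 357 and 406 CPM with siTsg101#1 and 544, 639 and 589.6 CPM with siTsg101#2 (-0.60). The higher call was CD63, a tetraspanin of late endosomes, at 925, 1032 and 1167 CPM with siTsg101#1 and 689, 587 and 772 CPM with siTsg101#2 (0.60). CTSA overlaps antisense exons over 1857 bases. These calls were not firm: CTSL lost its call without siTsg101#2 of batch 1, CTSA without any of 5 single libraries, and CD63 without any of 3 and with total counts. With 1 library left out the median stayed between -0.32 and -0.21 but 1 to 3 lower calls were found, fewest without siTsg101#1 or siTsg101#2 of batch 1, and without the block there were 3.

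The V-ATPase, autophagy and MiT-TFE lists had medians of 0.02, -0.01 and 0.01. ATP6AP2, an accessory subunit of the proton pump, measured 79.4, 82.9 and 89.5 CPM with siTsg101#1 and 141, 159 and 136 CPM with siTsg101#2, a difference of -0.79 (SE 0.14, adjusted p = 0.000714), with siTsg101#2 above all 12 others. GABARAPL2, an LC3-like conjugation protein, measured 72.4, 46.2 and 64.6 CPM with siTsg101#1 and 123, 103 and 113 CPM with siTsg101#2, a difference of -0.90 (SE 0.17, adjusted p = 0.0011). Of 40 autophagy genes tested, 4 (10%) were called lower and 0 higher, against 5.07% and 3.96% of all tested genes. With 1 library left out the list had 1 lower call in each case. It does not hold MAP1LC3C, and its highest difference was 0.58. MCOLN1, the lysosomal calcium channel, measured 34.4, 33.3 and 31.3 CPM with siTsg101#1 and 44.6, 40.01 and 49.04 CPM with siTsg101#2, a difference of -0.44 (SE 0.19, adjusted p = 0.147) with an interval of -0.86 to -0.01. NPC1, the cholesterol exporter of lysosomes, measured 135, 139.6 and 168 CPM with siTsg101#1 and 196, 211 and 189 CPM with siTsg101#2, a difference of -0.44 (SE 0.14, adjusted p = 0.04997), under the 1.5-fold limit. NPC1 overlaps antisense exons over 619 bases. In MCOLN1 and NPC1 all siTsg101#1 libraries lay below those of siTsg101#2, as they did in 15.3% of all tested genes.

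Cholesterol synthesis genes had similar medians against siCtrl#1 with both siRNAs, 1.19 with siTsg101#1 and 1.22 with siTsg101#2, in a comparison that shares the control libraries. Between the siRNAs the median of 25 genes was -0.08, with 1 (4%) called higher and 1 (4%) lower, against 3.96% and 5.07% of all tested genes. HMGCS1, which makes the precursor of the mevalonate pathway, measured 267, 240.1 and 223 CPM with siTsg101#1 and 252, 222 and 251 CPM with siTsg101#2, a difference of 0.01 (95% interval -0.35 to 0.36), and overlaps antisense exons over 2497 bases. DHCR7 and MSMO1, later enzymes of the pathway, differed by 0.18 (-0.20 to 0.55) and -0.37 (-0.83 to 0.09), neither called. STARD4, a sterol carrier, was called higher (0.67) and INSIG1, which retains the SREBP complex, lower (-0.74). Each of these 2 calls was lost without some single libraries. STARD4 lost it without siTsg101#2 of batch 1 or siTsg101#1 of batch 3, and INSIG1 without siTsg101#1 of batch 2 or siTsg101#2 of batch 2 or 3.

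Genes were also grouped by their response to the siVps28 siRNAs. In the fit of all 18 libraries, 452 genes (4.43%) were higher and 340 (3.33%) lower than siCtrl#1 with both siVps28#1 and siVps28#2. That contrast takes no siTsg101 level, but it shares the batch terms and the estimate of the spread with the difference between the Tsg101 siRNAs. Of the 452, 62 (13.7%) were higher and 25 (5.53%) lower with siTsg101#1 than with siTsg101#2, against 3.96% and 5.07% of all genes, and the median was 0.07, with 0.10, 0.03 and 0.11 in the batches. Of the 340, 10 (2.94%) were higher and 41 (12.1%) lower, and the median was -0.19, with -0.22, -0.08 and -0.24. The medians against siCtrl#1 were 1.05 with siTsg101#1 and 0.93 with siTsg101#2 for the first set, and -0.90 and -0.72 for the second.

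**Figure D5:**
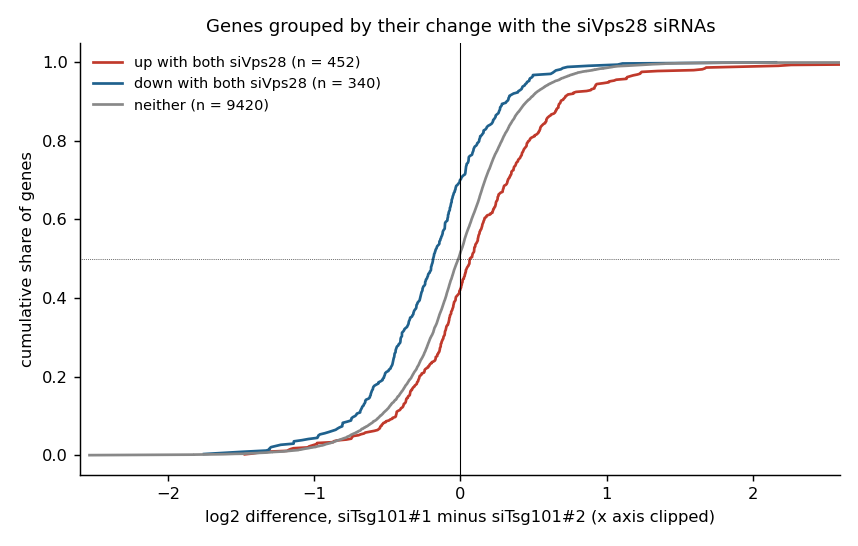
Cumulative share of genes (vertical axis) by their log2 difference between siTsg101#1 and siTsg101#2 (horizontal axis, clipped) for 452 genes higher with both siVps28 siRNAs, 340 lower with both and 9420 others. The curve of the lower set lies left of the others, with 30% of its genes above 0.

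In separate fits, chosen after seeing the data, the sets came from the 9 siCtrl#1 and siVps28 libraries alone and the differences from the 6 siTsg101 libraries alone, with the minimum count and the batches in common. Of 443 genes in the first set 14.9% were then higher and 5.87% lower, and of 362 in the second 3.04% and 15.2%, against 4.99% and 6.38% of all tested genes in that fit. The medians were 0.09 and -0.18. Of the calls in the fit of 18 libraries, 82.2% of the higher and 87.3% of the lower were in neither set, against 92.2% of all tested genes. With 1 library left out the medians were 0.05 to 0.11 and -0.25 to -0.13. The share called higher in the first set was then as low as 7.91% (without siTsg101#2 of batch 3), and the share called lower in the second as low as 5.44% (without siTsg101#1 of batch 3). RGS4, a brake on G protein signalling, was in the first set at 127, 116 and 137 CPM with siTsg101#1 and 57.1, 45.5 and 59.01 CPM with siTsg101#2, a difference of 1.24 (SE 0.13, adjusted p = 2.80e-06). Members moved against the set as well. SAT1, of polyamine breakdown, measured 36.02, 54.1 and 33.2 CPM with siTsg101#1 and 77.1, 107 and 83.3 CPM with siTsg101#2 with a difference of -1.14 (SE 0.15, adjusted p = 3.68e-05), and GTF2E1, a subunit of TFIIE, 8.60, 12.1 and 14.2 CPM with siTsg101#1 and 30.1, 36.1 and 32.2 CPM with siTsg101#2 with a difference of -1.47 (SE 0.19, adjusted p = 2.54e-05). In the second set FERMT1 (-1.26) and HSD17B11 (-1.29) were lower and DCTPP1 (1.08) and ITGA7 (0.88) higher with siTsg101#1. FERMT1 encodes kindlin-1 of integrin adhesions and HSD17B11 a lipid droplet dehydrogenase.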

How the data were processed

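The authors amplified RNA of RKO cells with the Ion AmpliSeq panel, aligned reads to its hg19 reference and, per the labels, counted them with HTSeq 0.6.0 (DESeq2 1.18.1 is also listed). The deposited counts are whole reads per transcript target, not normalised, with no molecular identifiers. The strand setting is not given in the sources used here, so the larger antisense overlaps are named. Of 20802 targets, 20228 were matched to symbols. Targets with more than 100 counts over 18 libraries were kept (10632), and 420 noncoding ones left out, which left 10212. Between 48.2% and 49.1% of entries were reads without a feature and stayed out of library sizes.

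Counts were fitted with edgeR 4.0.16 (R 4.3.3), TMM, 6 groups and the batch number as a block, and tested by quasi-likelihood with Benjamini-Hochberg adjustment. The batch number is the pairing in the labels, and same-batch libraries of the 2 siRNAs deviated together, though weakly (correlations 0.178, 0.267 and 0.207). Over all 45 same-batch pairs of different siRNAs the mean correlation was 0.146, with a range of -0.152 to 0.394. Log2 differences are siTsg101#1 minus siTsg101#2. Genes were called at 1.5-fold and adjusted p under 0.05. The members and gene lists were chosen with earlier results of these data known. Named genes are ESCRT-I subunits, the 12 largest called differences each way, up to 6 called members per list, 5 genes with qPCR primers in the study and 5 each way from the siVps28 sets. The study describes its RNA-seq samples as independent experiments. The 8 smallest p each way were added after the values were seen, which brought in ARF1, EMP1, ACO1, TRAK2, UCP2, SSBP3, CERS2, NOB1 and ABHD5; RNF11 and the TTTGAA, κB and ACGTG promoters shown were also chosen with values known. Alternatives were DESeq2 1.42.0, RLE or total-count scaling, other filters, noncoding genes kept, no block, a fit of the 6 libraries, thinning, each library left out and, chosen after seeing the data, separate fits for the siVps28 sets. The fit was tested on simulated data. Some members of the lists are not reported here by name.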

Additional observations from a re-analysis of the deposited data

Results flagged for a closer look

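At 9 genes the Tsg101 siRNAs were each called against siCtrl#1 and in opposite directions, and the difference between them was itself called with edgeR. Both comparisons share the siCtrl#1 libraries, so the difference between the siRNAs is the test. Against siCtrl#2, 4 of the 9 were again called in opposite directions, MAP1LC3C, CELF1, ABHD5 and ZCWPW1, and at the other 5 one of the siRNAs was not called. MAP1LC3C was 2.14 with siTsg101#1 and -1.35 with siTsg101#2, a difference of 3.49, and against siCtrl#2 0.63 with siTsg101#1 and -2.86 with siTsg101#2. CA9 was 1.36 with siTsg101#1 and -2.44 with siTsg101#2, a difference of 3.80 on at most 4 reads in each siTsg101#2 library, and against siCtrl#2 1.12 with siTsg101#1 and -2.68 with siTsg101#2, the former not called. CELF1 was 1.59 with siTsg101#1 and -1.29 with siTsg101#2, a difference of 2.88, and siVps28#1 and siVps28#2 gave -0.24 and -1.12. TMT1B, a methyltransferase, was 0.83 with siTsg101#1 and -1.33 with siTsg101#2, a difference of 2.16, and the siVps28 siRNAs gave -1.45 and -1.29. Against siCtrl#2 TMT1B was -0.11 with siTsg101#1 and -2.27 with siTsg101#2, the former not called. RNF11, an E3 ligase that dampens NF-κB signalling, was 0.64 with siTsg101#1 and -0.64 with siTsg101#2, a difference of 1.28. GTF2E1 was -0.76 with siTsg101#1 and 0.71 with siTsg101#2, a difference of -1.47. Against siCtrl#2 siTsg101#2 was not called at RNF11 (-0.58) or GTF2E1 (0.49). ABHD5, the activator of triglyceride lipase on lipid droplets, was -1.08 with siTsg101#1 and 0.71 with siTsg101#2, a difference of -1.79. KIF9 was -1.34 with siTsg101#1 and 1.05 with siTsg101#2, a difference of -2.40, and its call was lost after thinning. Against siCtrl#2 siTsg101#1 was not called at KIF9 (-1.09). ZCWPW1 was -1.38 with siTsg101#1 and 1.16 with siTsg101#2, a difference of -2.54, and siVps28#1 and siVps28#2 gave 0.64 and 1.20. At all 9 the sign of the difference was the same in the 3 batches, which is largely set by calling on these same libraries.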

How the results depend on the processing

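Of 116 named genes that were called, 66 kept the call under every setting run and 50 lost it under 1 or more, and no called gene changed direction. Without the replicate block 319 genes were higher and 395 lower, 16 named genes lost their call, and the pairs for scale gave 49 calls (siVps28) and 213 (siCtrl). DESeq2 gave 454 and 487, and 116 calls for the siVps28 pair. The 6 siTsg101 libraries alone, with the block, gave 510 and 652. Changes of scaling or of the minimum count, keeping noncoding genes, and calling by adjusted p alone gave 369 to 530 higher and 439 to 614 lower. With 1 library left out higher calls ranged from 249 to 370 and lower calls from 306 to 409, the median of the siVps28 up-set from 0.054 to 0.106, that of the down-set from -0.25 to -0.129, and the TSG101 difference from 0.071 to 0.496. Uncalled differences that changed sign were VPS28 (-0.008 after thinning, and -0.058 to 0.064 with 1 library left out), VPS37B (-0.21 to 0.026), UBAP1 (-0.198 to 0.118), MVB12B (0.034 after thinning) and HMGCS1 (-0.014 with total counts, -0.003 with no filter, and -0.088 to 0.074 with 1 library left out), and the cause was not tested. TSG101 has no value at 10 counts in every library. Genes with few reads in the siTsg101#1 library of batch 1, which is the smallest, are measured least precisely.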

Other observations

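Calls in the interferon and ATF4 lists were near the shares of all tested genes, 3.96% higher and 5.07% lower. Of 29 interferon-stimulated genes and RNA sensors, 1 (3.45%) was called higher and 1 (3.45%) lower, ISG20 (0.90) and STAT2 (-0.61), and the median was 0.17. ISG20 lost its call without any of 5 single libraries and STAT2 without any of the 6. The 24 ATF4 and amino acid response genes had 1 (4.17%) higher, NUPR1 (1.23), and 1 (4.17%) lower, ASNS (-0.73), with a median of -0.04. NUPR1 lost its call without any of 5 single libraries. ASNS was not called without the block (adjusted p = 0.191), and 99.5% of its transcript is shared with other transcripts. Of 7 tested genes of cholesterol efflux, 1 (14.3%) was called lower, SMPDL3A. It had 0, 2 and 5 reads with siTsg101#1 and 6, 18 and 9 with siTsg101#2. SMPDL3A passed the minimum of more than 100 counts only with its siTsg101#2 reads, and its call was lost without any 1 of the 6 libraries.

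In the respiratory chain, calls went in both directions: the median of 49 genes was 0.02, COX5B was higher, and COXFA4 (-0.80) and COX7A2 (-1.24) were lower. These calls are 2.04% higher and 4.08% lower, against 3.96% and 5.07% of all tested genes. COXFA4, an accessory subunit of cytochrome c oxidase, measured 59.8, 82.7 and 65.9 CPM with siTsg101#1 and 120.1, 132 and 111 CPM with siTsg101#2, with siTsg101#1 below all 12 others, whereas COX7A2 had 5, 6 and 23 reads with siTsg101#1 and 44, 24 and 42 with siTsg101#2 and siTsg101#2 above them. Its call was lost without each of 4 single libraries. DCTPP1, a nucleotide pyrophosphatase, measured 73.3, 60.3 and 68.97 CPM with siTsg101#1 and 32.5, 25.4 and 38.6 CPM with siTsg101#2, with siTsg101#2 below the 12 others (68.2 to 148 CPM). It overlaps antisense exons over 645 bases. LURAP1L (-1.92) had 3, 5 and 22 reads with siTsg101#1 and 63, 49 and 35 with siTsg101#2, and KRT15, a basal keratin, 36, 33 and 70 reads with siTsg101#1 and 26, 7 and 13 with siTsg101#2 (2.17).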
